A study of Mus musculus with 12 samples.

Results

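The CDC-like kinases (CLK) and the serine- and arginine-rich (SR) splicing factors were followed in mouse erythroleukemia (MEL) cells, a leukemia line of the red cell lineage. The set held 10 genes of the 18193 genes named on the array: the kinase genes Clk1, Clk2, Clk3 and Clk4, the SR protein genes Srsf2, Srsf3, Srsf5, Srsf6 and Srsf7, and the SR-like gene Tra2a. All probe sets annotated to exactly 1 of these symbols were taken, which gave 26 probe sets for 9 genes. No level of Srsf7 was analysed here. The genes were chosen by measured values of these same arrays, with results known: the rule names the contrast of replicate 1 with replicates 2 and 3 and the knockdown contrast. Both contrasts are therefore a description of these arrays, and neither supports the choice of genes.

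RNA was hybridized from 3 wild type and 3 G9a knockdown samples, numbered 1 to 3 in each group. G9a, the product of Ehmt2, methylates lysine 9 of histone H3. Per the labels, DMSO at 2% was given for 4 days to bring about erythroid differentiation, and doxycycline at 5 µg/ml was used to induce the knockdown. Both groups carry the same protocol text, so whether wild type cells also received doxycycline is not given in the sources used here, nor are the knockdown construct and its clone. The labels do not say whether the replicates were separate cultures, so the spread between arrays may be technical.

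CLK kinases are nuclear enzymes that phosphorylate the arginine- and serine-rich tails of SR proteins and thereby move them out of nuclear speckles. SR proteins bind exons in the pre-mRNA and help the spliceosome to recognise the adjacent splice sites. Many SR and CLK genes also make transcript forms with a retained intron or an exon that introduces a premature stop, so 1 gene can be read by probe sets that follow different transcript forms. Alternative splicing and intron retention are widespread in maturing red cell precursors.

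Each array was deposited as GCRMA log2 expression, used throughout unless stated, and as linear MAS5 intensity. At the Ehmt2 probe sets, wild type arrays read 6.82 to 7.43 and 9.92 to 10.23, and knockdown arrays read 4.16 to 4.29 and 6.67 to 7.58, with no overlap. Of 15 listed erythroid markers 12 were on the array and 11 passed the filter described below, among them Gata1 at 13.09 to 13.72, Klf1 at 12.11 to 13.05, Slc4a1 at 6.93 to 8.41 and the globin gene Hba-a2 at 7.15 to 7.76. The globin gene Hba-a1 did not pass. Listed genes were read only at probe sets annotated to exactly 1 gene, and the 932 annotated to several genes were left out. A gene with only such shared probe sets counts here as not on the array. The globin values are therefore not a measure of all globin transcripts. Of the markers of other lineages, 2 of 10 myeloid, 2 of 9 megakaryocyte, 0 of 9 lymphoid, 0 of 6 mast cell and 1 of 8 fibroblast and endothelial genes passed. The replicate 1 arrays stood apart in several ways. The MAS5 median over all probe sets was 47.8 (wild type) and 59.0 (knockdown) on these arrays, against 61.5 to 68.4 on the other 4 arrays. The 3′ to 5′ log2 ratio of the β-actin control, a sign of RNA or labelling quality, was 0.97 and 1.00 there against 1.07 to 1.19, and that of Gapdh was 0.015 and 0.033 against 0.042 to 0.16. Lineage markers were also read as replicate 1 minus replicates 2 and 3. Of the 11 erythroid markers, 2 lay below and 1 above with no overlap, with a median of −0.024. Over all probe sets tested these shares were 13.3% and 17.8%. The markers of any lineage with no overlap were the globin gene Hbb-b2 (−0.79), Tal1 (−0.19), Gata1 (0.35), the platelet gene Pf4 (0.94) and the fibroblast marker Pdgfrb (0.91). The megakaryocyte gene Itga2b differed by −0.23, with overlap. The part of these quantities in the replicate 1 differences below was not tested.

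A probe set was tested if it read above log2 4 on at least 3 of the 6 arrays. Of the 26 probe sets 24 passed, and all 9 genes had at least 1. The 2 that did not pass belong to Tra2a, 1439043_at (2.70 to 2.82) and 1459753_x_at (2.19 to 2.27). The dimmest that passed was Srsf2 1427816_at, at 4.49 to 4.78. Each gene is represented by its brightest passing probe set. Levels are compared within a probe set and not between probe sets.

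**Figure D1:**
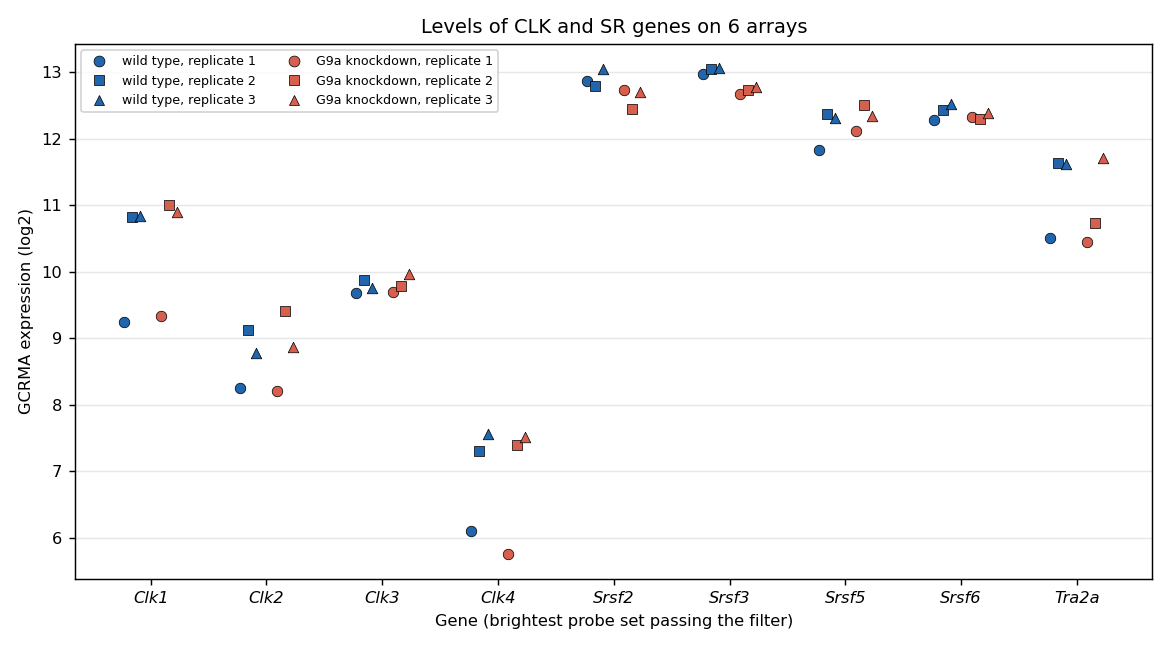
GCRMA log2 expression (y axis) of the brightest passing probe set of 9 genes (x axis), 1 point per array, blue for wild type and red for the knockdown, with marker shape for the replicate number. The Clk1 and Clk4 points of replicate 1 lie over 1 log2 unit below those of replicates 2 and 3 in both groups, and the Srsf3 points of the knockdown lie below those of wild type.

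The largest differences among the kinases lay between replicate numbers and not between wild type and knockdown. Clk1, at 1426124_a_at, gave 9.24, 10.82 and 10.84 for wild type, in the order of the replicate numbers, and 9.34, 11.01 and 10.90 for the knockdown. The replicate 1 arrays were both lower than the other 4, with a mean difference of −1.60 (3.04-fold lower) beside an SD of 0.085 among those 4. Wild type alone gave −1.59 and the knockdown alone −1.62. Of all probe sets tested, 0.787% had a replicate 1 difference this low or lower. In bulk RNA, fewer cells of a kind and less of a transcript per cell cannot be told apart.

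Clk4, a close relative of Clk1, did the same at both of its probe sets. At 1422886_a_at it read 6.11, 7.30 and 7.56 in wild type and 5.75, 7.40 and 7.51 in the knockdown, a replicate 1 difference of −1.51 (−0.98 in MAS5). At 1427663_a_at it read 5.95, 6.56 and 6.55 in wild type and 5.19, 6.49 and 6.47 in the knockdown, a difference of −0.95 (−0.41 in MAS5, where the replicate 1 arrays overlapped the others). The lowest array was knockdown replicate 1 at both.

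Clk2 and Clk3 differed less. Clk2, at 1417743_at, read 8.25, 9.13 and 8.77 in wild type and 8.21, 9.41 and 8.88 in the knockdown, a replicate 1 difference of −0.81 (1.76-fold lower), and replicate 2 was the highest array in each group. Clk3, at 1423849_a_at, spanned only 9.69 to 9.96 over the 6 arrays. Its replicate 1 arrays, at 9.69 and 9.70, were the lowest by a small margin, with a difference of −0.15 beside an SD of 0.094 among the other 4. In MAS5 the Clk3 difference was −0.31 and the arrays overlapped.

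Tra2a, which encodes an SR-like protein that binds purine-rich exon enhancers, had low replicate 1 arrays at all 4 passing probe sets. The brightest, 1454725_at, read 10.50, 11.63 and 11.62 in wild type and 10.44, 10.73 and 11.71 in the knockdown, so knockdown replicate 2 lay near the replicate 1 arrays. At 1442886_at the values were 4.29, 6.03 and 6.22 in wild type and 4.30, 6.04 and 6.21 in the knockdown. Differences between same-numbered arrays were thus 0.0055, 0.0038 and −0.012, beside a replicate 1 difference of −1.83 (3.55-fold lower). The replicate 1 level there lay close to the filter. The probe set 1429680_at differed by −0.87. At 1455933_at the groups departed from each other: wild type read 3.61, 5.28 and 5.43, and the knockdown 5.08, 5.10 and 5.17, which gave replicate 1 differences of −1.74 and −0.049. In MAS5 replicate 1 was lowest in both groups, with intensities of 38.9, 159 and 152 in wild type and 66.9, 127 and 119 in the knockdown.

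**Figure D2:**
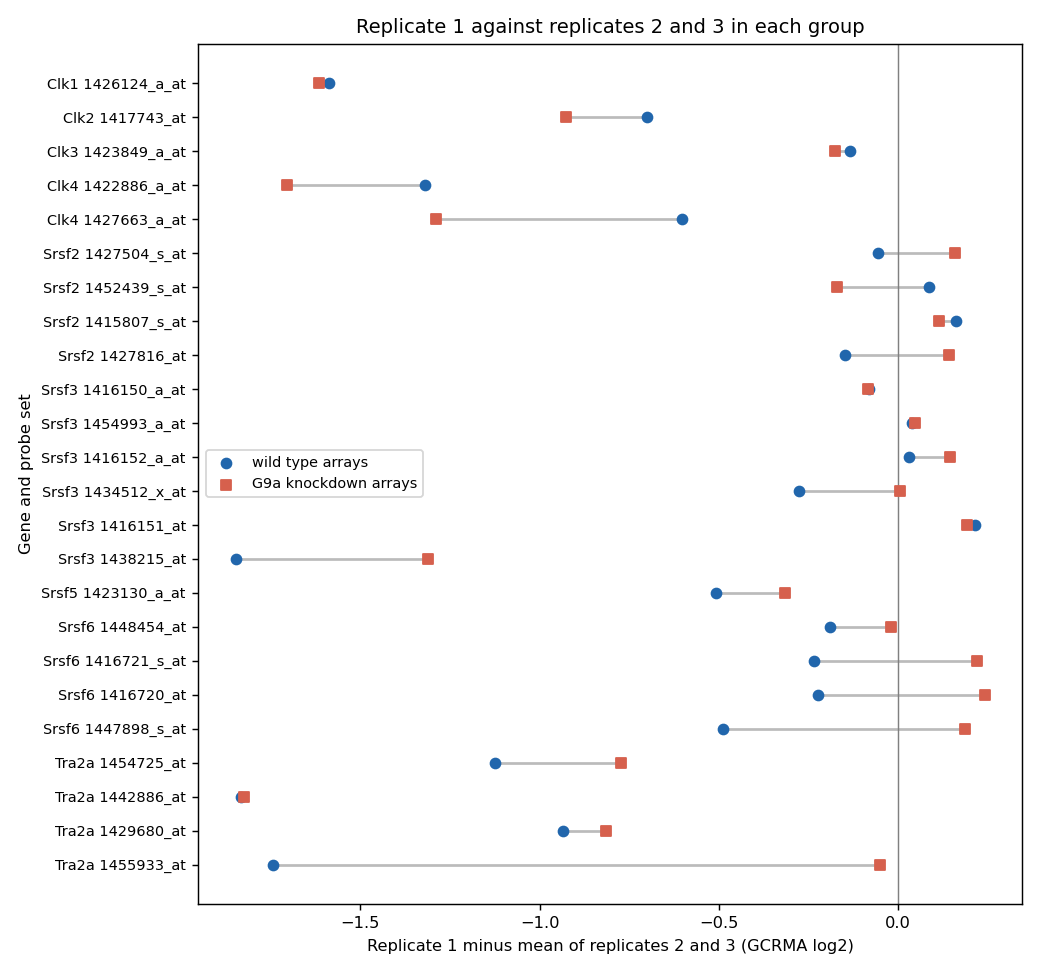
Replicate 1 minus the mean of replicates 2 and 3 (x axis, GCRMA log2) for each of the 24 passing probe sets (y axis), in wild type (blue circles) and in the knockdown (red squares), with a grey line joining the groups. Clk1, Clk2, Clk3, Clk4, Srsf5, Tra2a and the Srsf3 probe set 1438215_at are negative in both groups, while the remaining Srsf3, Srsf2 and Srsf6 probe sets lie between −0.49 and 0.24.

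Among the SR protein genes, Srsf5 was also lower in replicate 1, by less than Clk1, Clk2 and Clk4. Its difference was larger than that of Clk3 in GCRMA, but not in MAS5 (−0.30 against −0.31). Srsf5, whose protein binds splicing enhancers in exons, read 11.83, 12.37 and 12.31 in wild type and 12.11, 12.51 and 12.35 in the knockdown at 1423130_a_at. Both replicate 1 arrays were below the other 4, with a mean difference of −0.41 (1.33-fold lower). Srsf2, Srsf3 and Srsf6 did not separate by replicate number at their brightest probe sets, with differences of 0.051, −0.082 and −0.10.

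The Srsf3 gene was read by 6 passing probe sets that did not run together. At 1438215_at it read 4.19, 5.95 and 6.12 in wild type and 4.89, 6.35 and 6.05 in the knockdown, a replicate 1 difference of −1.58 (2.99-fold lower). The replicate 1 levels there were low, with wild type close to the filter, and the MAS5 difference was −1.18. At the other 5 the replicate 1 difference ran from −0.13 to 0.20, and the replicate 1 arrays overlapped the rest at each. Srsf3 encodes a small SR protein that controls the inclusion of an exon in its own transcript that introduces a stop. Which transcript form 1438215_at reads is not given in the sources used here.

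Srsf6 pointed in opposite directions in the groups at 3 of its 4 probe sets. At 1416720_at it read 9.28, 9.47 and 9.54 in wild type, where replicate 1 was lowest, and 9.65, 9.56 and 9.25 in the knockdown, where replicate 1 was highest. At its brightest probe set, 1448454_at, it read between 12.29 and 12.52 on all 6 arrays.

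Counted over the set, both replicate 1 arrays lay below the other 4 at 11 of 24 probe sets and above them at 0. Over all probe sets tested these shares were 13.3% below and 17.8% above. Since the choice of genes used this contrast, nothing is read from that difference. The median difference over the 24 probe sets was −0.14, against 0.043 over all probe sets tested. By gene, at the brightest probe set of each, 6 of 9 lay below, with a median of −0.41. In MAS5 5 of 9 lay below, and the MAS5 share over all probe sets is not given here. The MAS5 sign was the same for all 9 genes.

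The promoter windows of Clk4 and Tra2a are shown because they hold the full cyclic AMP response element, and those of Srsf2 and Srsf3 because they hold a TATA box. They were chosen after the matches were seen. They run from 250 bases before to 50 after the gene start in RefSeq (GRCm38.p6): Clk4 at chr11:51262864-51263163 (plus strand), Tra2a at chr6:49264003-49264302 (minus strand), Srsf2 at chr11:116853045-116853344 (minus strand) and Srsf3 at chr17:29032410-29032709 (plus strand). Capitals mark matches, on either strand, to 4 motifs: the TATA box TATAAA, the CCAAT box, the full cyclic AMP response element TGACGTCA, and the core TGACG, which overlaps the full element.
Clk4: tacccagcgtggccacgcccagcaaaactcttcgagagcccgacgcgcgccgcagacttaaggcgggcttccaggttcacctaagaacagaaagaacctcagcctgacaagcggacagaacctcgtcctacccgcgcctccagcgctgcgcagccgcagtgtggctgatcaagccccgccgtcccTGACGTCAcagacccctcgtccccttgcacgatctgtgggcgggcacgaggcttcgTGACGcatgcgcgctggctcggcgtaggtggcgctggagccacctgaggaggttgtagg
Tra2a: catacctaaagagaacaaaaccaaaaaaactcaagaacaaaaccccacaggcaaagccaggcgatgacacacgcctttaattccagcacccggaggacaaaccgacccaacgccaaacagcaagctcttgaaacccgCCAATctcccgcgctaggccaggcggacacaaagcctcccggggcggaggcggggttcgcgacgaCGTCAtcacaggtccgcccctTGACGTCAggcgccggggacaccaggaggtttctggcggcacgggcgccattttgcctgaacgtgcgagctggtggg
Srsf2: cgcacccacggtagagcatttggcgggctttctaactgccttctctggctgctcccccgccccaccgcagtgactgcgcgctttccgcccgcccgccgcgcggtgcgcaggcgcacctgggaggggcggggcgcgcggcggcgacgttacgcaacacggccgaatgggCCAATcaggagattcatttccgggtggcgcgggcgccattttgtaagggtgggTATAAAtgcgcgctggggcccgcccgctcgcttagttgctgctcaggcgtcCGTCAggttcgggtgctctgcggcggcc
Srsf3: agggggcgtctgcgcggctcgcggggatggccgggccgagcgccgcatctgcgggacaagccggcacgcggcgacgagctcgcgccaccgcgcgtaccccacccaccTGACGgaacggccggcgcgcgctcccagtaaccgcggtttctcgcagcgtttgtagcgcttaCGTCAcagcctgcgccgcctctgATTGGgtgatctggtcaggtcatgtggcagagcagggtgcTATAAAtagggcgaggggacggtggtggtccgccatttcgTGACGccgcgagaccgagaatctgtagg

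The table held windows of 9 genes of the set, Srsf7 included, and Clk1 was not searched here. Clk4 and Tra2a held TGACGTCA, which occurs in 1.79% of the 32851 windows. The windows of Clk2, Clk3, Srsf2, Srsf3, Srsf5, Srsf6 and Srsf7 held none. A link between the element and the replicate 1 differences was not tested. The core TGACG was in 8 of 9, against 20.8% of all windows. The 9 windows hold 56.0% to 74.7% G and C, and the content of all windows is not given here. The shares were not matched for base composition, so nothing is read from these contrasts. The CCAAT box was in 4 of 9 (37.4% of all windows). The TATA box was in 2 of 9, Srsf2 and Srsf3 (13.6% of all windows). Such matches are letters in a window, and binding was not measured.

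The knockdown differences of the set were small, and 0 of 24 probe sets passed in limma, fitted with replicate numbers as blocks and adjusted over all 17028 probe sets (smallest adjusted p = 0.211). Over all probe sets tested 0.0117% passed, which were the 2 Ehmt2 probe sets. With no block term 1 probe set passed. In the fit with the block, 7 of 24 were lower and 0 higher in the knockdown at an unadjusted p under 0.05, beside 7.24% lower and 6.44% higher over all probe sets. The 7 were 5 Srsf3 and 2 Srsf2 probe sets, which share their transcripts and are not independent. The count over the set was 4, 1 and 3 when replicate 1, 2 or 3 was left out in turn. In MAS5 it was 3, of which 2 (Srsf3 1416152_a_at and 1454993_a_at) were among the 7, and the remaining 1 was Clk4 1427663_a_at. Shares over all probe sets are not given here for these fits. In all, 15 of 24 differences were negative, with a median of −0.091 against −0.0083 over all probe sets.

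Srsf3 was lower on every knockdown array than on any wild type array at 5 of 6 probe sets. At 1416150_a_at it read 12.97, 13.05 and 13.06 in wild type and 12.68, 12.74 and 12.78 in the knockdown. The groups did not overlap, and the differences within the 3 pairs were −0.30, −0.31 and −0.28. The fitted difference was −0.30 (95% interval −0.53 to −0.063, limma adjusted p = 0.302), or 1.23-fold. The MAS5 difference there was −0.18.

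The other 4 of these Srsf3 probe sets gave like values. The knockdown differences were −0.42 at 1416151_at, −0.40 at 1416152_a_at, −0.31 at 1434512_x_at and −0.46 at 1454993_a_at (limma adjusted p 0.211 to 0.332). In MAS5 1416151_at differed by −0.13 and 1434512_x_at by −0.33, with overlap between the groups at both. The groups did not overlap in MAS5 at 3 of 6 Srsf3 probe sets. Of these 5, 3 share 1 source sequence in the annotation and the remaining 2 share another. The sixth, 1438215_at, differed by 0.35 in the opposite direction (−0.068 to 0.76, limma adjusted p = 0.427), from pair differences of 0.70, 0.40 and −0.064.

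**Figure D3:**
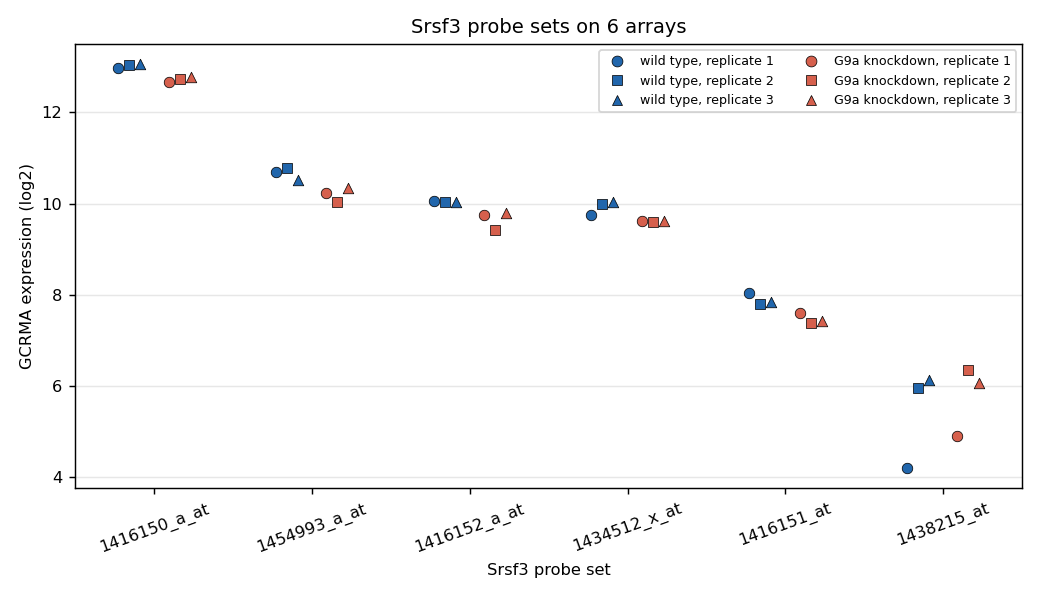
GCRMA log2 expression (y axis) at the 6 Srsf3 probe sets (x axis), 1 point per array, coloured by group and shaped by replicate number. Knockdown points lie below wild type points at 5 probe sets, and at 1438215_at the replicate 1 points lie below the rest.

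Srsf2, which encodes an SR protein of the nuclear speckles that acts on both splicing and transcription, was lower at its brighter probe sets. At 1427504_s_at it read 12.87, 12.80 and 13.05 in wild type and 12.74, 12.44 and 12.71 in the knockdown. The groups did not overlap, and the fitted difference was −0.28 (−0.53 to −0.020, limma adjusted p = 0.345). At 1415807_s_at the groups did not overlap either, with −0.28 (limma adjusted p = 0.323), while at 1452439_s_at they did, with −0.22. The dim probe set 1427816_at differed by −0.056. The suffix _s_at marks probes that can match more than 1 transcript, so signal from similar sequences cannot be told apart.

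Over the set, all knockdown arrays lay below all wild type arrays at 7 of 24 probe sets and above them at 0, beside 7.33% and 5.04% over all probe sets. The 7 were the same 5 Srsf3 and 2 Srsf2 probe sets. The kinases overlapped between groups at each probe set. Clk1 differed by 0.12 (−0.12 to 0.36), Clk2 by 0.11 (−0.16 to 0.39) and Clk3 by 0.038 (−0.23 to 0.31). Their limma adjusted p ran from 0.629 to 0.905.

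Clk4 gave −0.10 at 1422886_a_at (−0.41 to 0.21), with 0.17 in MAS5. The difference was 0.027 without replicate 1 and −0.20 without replicate 2, so its sign depends on the summary and on the replicate 1 pair. At 1427663_a_at the difference was −0.31 in GCRMA, where the groups overlapped, and −0.77 in MAS5, where they did not (limma adjusted p = 0.476 and 0.419). The largest GCRMA pair difference there was −0.76, in replicate 1.

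Srsf5 differed by 0.15 (−0.10 to 0.41) and Srsf6 by −0.080 (−0.33 to 0.17) at its brightest probe set. At 1416721_s_at, 1416720_at and 1447898_s_at Srsf6 differed in the opposite direction, by 0.035, 0.052 and 0.048. Tra2a differed by −0.29 at 1454725_at (−0.82 to 0.23), from pair differences of −0.059, −0.91 and 0.081, and by 0.011 without replicate 2. At 1455933_at its difference of 0.34 came from a pair difference of 1.47 in replicate 1, against −0.19 and −0.26 in the other pairs, and it was 0.031 in MAS5. At 1442886_at it was −8.2e-04.

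**Figure D4:**
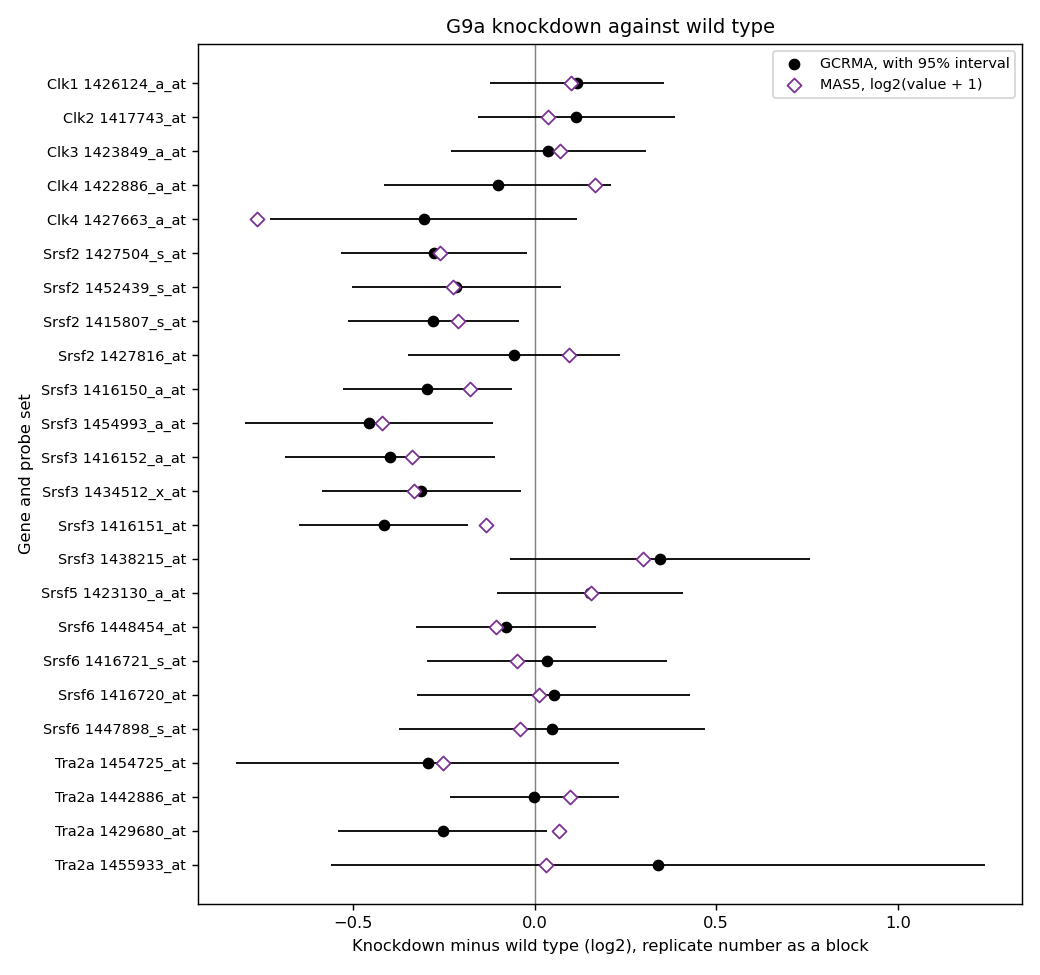
Knockdown minus wild type (x axis, log2) for the 24 passing probe sets (y axis), from the fit with the replicate number as a block. Black points with bars are GCRMA with 95% intervals and open diamonds are MAS5. Of the intervals, the 5 Srsf3 and 2 Srsf2 ones that exclude 0 before adjustment belong to probe sets with negative differences.

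Other splicing genes were taken from lists, which were chosen with earlier results of these data known. Their counts are a description, and nothing is read from their distance to the shares over all probe sets. Of 18 other SR and SR-like genes 17 passed the filter and 0 passed the test in either direction (smallest limma adjusted p = 0.438, with 0 at an unadjusted p under 0.05). Both replicate 1 arrays lay below the other 4 for 8 of the 17 and above for 0, with a median difference of −0.26, beside 13.3% below and 17.8% above over all probe sets. Rsrp1, a gene for an arginine- and serine-rich protein, read 10.14, 11.69 and 12.19 in wild type and 10.43, 11.83 and 12.32 in the knockdown, a replicate 1 difference of −1.72. Pnisr, which encodes another protein of this kind, differed by −1.61, and Luc7l, a homologue of a yeast U1 snRNP factor, by −1.52. The Tra2a paralogue Tra2b differed by −0.17 and Srsf1 by −0.088. The largest knockdown differences of the list were −0.40 for Luc7l, from pair differences of −1.34, 0.28 and −0.12, and 0.33 for Pnisr, which was 0.10 in MAS5.

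Of 9 other genes for kinases of SR proteins and related kinases, 7 passed the filter and 0 the test, with a replicate 1 median of −0.13. At an unadjusted p under 0.05, 2 were higher and 1 lower in the knockdown, beside 6.44% and 7.24% of all probe sets. Dyrk2 differed by 0.45 between knockdown and wild type (limma adjusted p = 0.212), Srpk1, a cytoplasmic SR protein kinase, by 0.37, and Top1, the topoisomerase that can also phosphorylate SR proteins, by −0.35. Dyrk3 ran against the CLK genes, with a replicate 1 difference of 0.52.

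Of 31 core spliceosome genes 28 passed the filter, the replicate 1 median was 0.13, and both replicate 1 arrays lay below the other 4 for 2 and above for 8 (13.3% and 17.8% over all probe sets). Differences between lists were not tested. U2af1, the subunit that reads the 3′ splice site, differed by −0.46 and Snrpb, a shared core protein of the snRNPs, by 0.44. Of 21 hnRNP genes 20 passed, with a median of −0.071, 4 below and 2 above. Hnrnph2 differed by −0.52 and Hnrnpdl by −0.51. Of 14 genes for nonsense-mediated decay factors, which remove transcripts with premature stops, 9 passed, with a median of −0.17, and the kinase gene Smg1 differed by −0.42. In limma 0 genes of these lists passed for the knockdown (smallest adjusted p = 0.273, for Hnrnpd at −0.36). At an unadjusted p under 0.05 there were 3 hnRNP genes (2 lower, 1 higher), 1 core spliceosome gene (lower) and 0 decay factor genes. The shares over all probe sets were 7.24% lower and 6.44% higher.

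**Figure D5:**
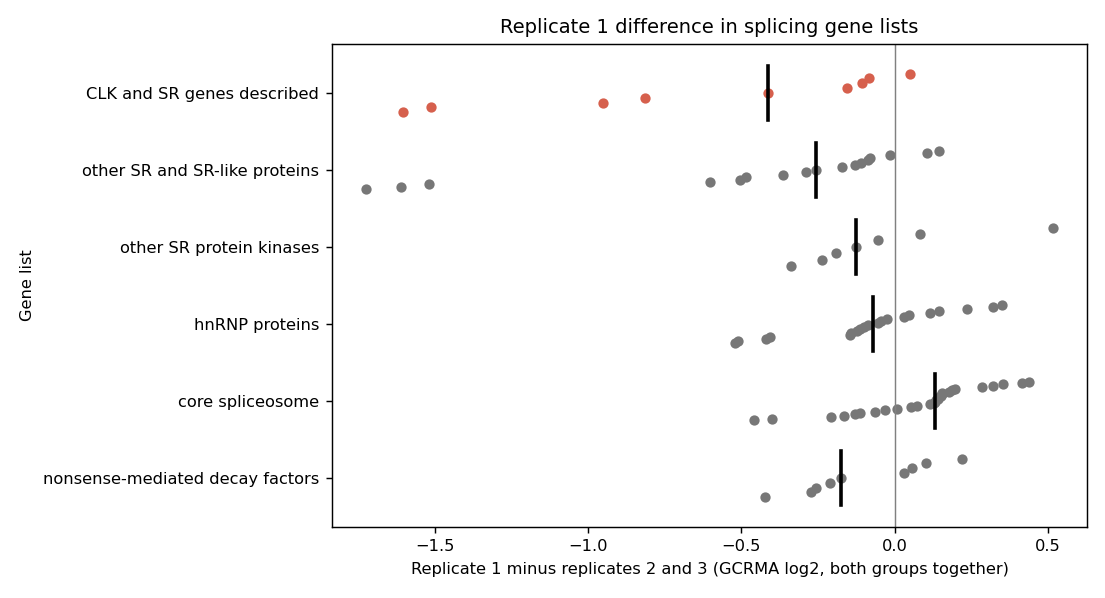
Replicate 1 minus replicates 2 and 3 (x axis, GCRMA log2, both groups together) for each passing gene of 6 lists (y axis), with a black bar at the list median. The medians are −0.41 for the CLK and SR genes, −0.26 for other SR and SR-like genes, −0.13 for the other kinases, −0.071 for hnRNP genes, 0.13 for the core spliceosome and −0.17 for decay factors.

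Heat shock and immediate early genes, which respond to stress and growth signals, were read beside these. Of 13 heat shock genes 8 passed, with a replicate 1 median of −0.043, and Dnajb1 differed by −0.54. Of 19 immediate early genes 13 passed, with a replicate 1 median of −0.35 and 5 genes below on both replicate 1 arrays (13.3% over all probe sets), among which Zfp36 differed by −1.13. Their part in the replicate 1 difference of the CLK genes was not tested. In limma 0 genes of either list passed for the knockdown, and at an unadjusted p under 0.05 there were 3 heat shock and 8 immediate early genes, all higher, beside 6.44% of all probe sets. Hsph1 differed by 0.44 and Atf3 by 1.12 (limma adjusted p = 0.213 and 0.149).

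The genes whose profile over the 6 arrays was most like the mean profile of the 9 genes were Mrm1, Tatdn1, Frmd4a, Med18, Ppil4, Dnm1l, H3c7 and Thoc2, with Pearson r from 0.988 to 0.994 over 6 arrays. As deviation from the mean of all arrays, this profile read −0.39, 0.24 and 0.25 for wild type and −0.44, 0.12 and 0.21 for the knockdown. Of 9016 genes compared, 239 (2.65%) had r above 0.9. Of the 8, H3c7, a replication-dependent histone H3 gene, had the widest range, at 4.39, 7.20 and 7.40 in wild type and 3.55, 7.04 and 7.09 in the knockdown. Med18, a Mediator subunit, had the narrowest, from 7.93 to 8.19. Ppil4, a cyclophilin found in spliceosomes, differed by −0.38 in replicate 1, and Thoc2, of the mRNA export complex, by −0.64.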

How the data were processed

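RNA from 6 samples, 3 wild type and 3 G9a knockdown, was measured on Affymetrix mouse arrays. The authors deposited 2 summaries of each array, per the labels: MAS5 intensity on a linear scale and GCRMA log2 expression. Their versions and settings are not stated in those labels. The 2% trimmed mean of each deposited MAS5 intensity column was 500.0, so arrays had been scaled to 1 target. The 12 columns are 6 arrays and were never counted as 12 samples. Gene names came from the platform annotation, in which 34945 probe sets carry 1 gene symbol, 932 several and 9160 none, and the identifiers of all 26 probe sets of the set matched a RefSeq gene table (GRCm38.p6).

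Of 45101 probe sets 64 controls were left out. Probe sets above log2 4 on at least 3 arrays (17028) were fitted with limma 3.58.1 in R 4.3.3, with group and replicate number as terms and Benjamini-Hochberg adjustment over all of them (threshold 0.05). The block follows the rule by which the set was chosen; deviations from the group means correlated at 0.72, 0.57 and 0.37 between same-numbered arrays, which is a pairing seen in the data and not stated in the labels. Replicate 1 against replicates 2 and 3 was described without a test. MAS5 values were taken as log2(value + 1). The fit was tested on simulated data. Alternatives were the unblocked fit, MAS5 with another pseudocount, other scaling, other filters, array weights and leaving out each replicate pair. Named genes were all probe sets of the set, the 8 most similar profiles, and in each list up to 2 genes by size of each difference. Tra2b, Srsf1 and Top1 were named after their values were seen. The members and lists were chosen with earlier results of these data known. The number of arrays limits the precision.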

Additional observations from a re-analysis of the deposited data

Results flagged for a closer look

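In 4 probe sets the replicate 1 array lay outside replicates 2 and 3 in both groups, but on opposite sides: lowest of 3 in wild type and highest of 3 in the knockdown. The difference between the groups in the replicate 1 effect (knockdown minus wild type, GCRMA log2) was 0.67 at Srsf6 1447898_s_at, 0.47 at Srsf6 1416720_at, 0.45 at Srsf6 1416721_s_at and 0.29 at Srsf2 1427816_at. At the Srsf2 probe set MAS5 did not show it: both replicate 1 arrays were below the other 4, with a difference of −0.35. Each effect rests on 1 replicate 1 array per group, and the difference was not tested. Groups of 3 arrays were too small for a check for single outlying arrays.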

How the results depend on the processing

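The count of member probe sets called for the knockdown was 0 under every alternative run. Over all probe sets the count of 2 became 1 with no replicate block, 0 in MAS5 with either pseudocount, 0 with no filter, 8 with the filter at log2 6, 4 with array weights, and 0 to 1 when a replicate pair was left out. The median replicate 1 difference of the genes, −0.41, was −0.31 and −0.30 in MAS5 with a pseudocount of 1 and 32, −0.51 in wild type alone and −0.32 in the knockdown alone. Single-gene knockdown differences kept their sign under 102 alternatives and changed it under 6. Clk3 changed to −0.044 without replicate 3, and was up to 0.11 with another pair left out. Clk4 changed to 0.17 and 0.15 in MAS5 and to 0.027 without replicate 1, and was −0.20 without replicate 2. Srsf6 changed to 0.014 as the mean of its probe sets. Tra2a changed to 0.011 without replicate 2, and was −0.48 without replicate 3. Single-gene replicate 1 differences moved by at least the SD of the other 4 arrays under 13 alternatives, in Clk1, Clk3, Clk4 and Srsf5, and by less under 68. Alternatives for the next counts were chosen after seeing the data. Member probe sets lower in the knockdown at an unadjusted p under 0.05 numbered 7, 5 with no replicate block, 3 in MAS5 and 1 to 4 when a pair was left out. Over all probe sets, 2329 had an unadjusted limma p under 0.05 in either direction with the block, and 999 without it. Shares for MAS5 and for pairs left out are not given here, so nothing is read from those counts. Member probe sets with all knockdown below all wild type arrays numbered 7, 6 in MAS5 (5 of the 7, and Clk4 1427663_a_at) and 8 to 14 when a pair was left out. The 14 came without replicate 1, where 19.4% of all probe sets did so, against 7.33% with all arrays. Shares for MAS5 and for the other pairs left out are not given here, so nothing is read from the rise above 7. The cause of these changes was not tested, although leaving out a pair leaves fewer arrays. The number of arrays, 3 per group, limits the precision.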
